A study of Mus musculus with 8 samples.

Results

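The unfolded protein response and the ATF4 stress response were followed through 10 genes in kidneys with constitutively active NRF2. All 10 genes, Hspa5, Hsp90b1, Pdia4, Dnajb9, Herpud1, Xbp1, Atf4, Ddit3, Trib3 and Asns, were taken for their roles as chaperones, transcription factors and target genes of these responses, and their probes were found by gene name. They are 10 of the 18217 genes that could be named on the arrays. All 10 were well above background on all 8 arrays and entered the test, among 19593 genes and unnamed transcripts. None of the 10 passed the test, which 0.097% of all features passed as higher in NEKO kidneys and 0.128% as lower. With shares this small, any 10 genes would usually give none. The median absolute difference between NEKO and control kidneys was 0.12 in log2 units for the 10 genes and 0.15 for all features. The confidence intervals of their ratios reached down to 0.676-fold and up to 1.60-fold. Asns, with a ratio of 1.24, was the only one of the 10 whose groups did not overlap. Of all features, 3.89% were separate in this direction and 5.39% in the other.

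Misfolded proteins in the endoplasmic reticulum (ER) are sensed by IRE1, PERK and ATF6. IRE1 splices Xbp1 mRNA into the form that encodes an active transcription factor, and ATF6 is cut in the Golgi to release another, and both raise the transcripts of ER chaperones and of the machinery that degrades misfolded proteins. PERK phosphorylates eIF2alpha, which slows translation in general but favours translation of ATF4, and ATF4 raises amino acid synthesis and transport genes and CHOP, the product of Ddit3. GCN2, PKR and HRI reach ATF4 through the same phosphorylation when amino acids are scarce, during viral infection or when haem is short. The kidney tubule makes large amounts of secreted and membrane proteins, and this response is well known in tubular injury.

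RNA came from whole kidney of mice aged 8 weeks on a mixed 129Sv/J and C57BL/6J background. NEKO mice (Keap1-/-::Nrf2 Flox/Flox::K5-Cre, 2 females and 2 males) lack Keap1, the protein that keeps NRF2 low, throughout the body, and K5-Cre removes Nrf2 in squamous epithelium, where the Keratin5 promoter is active, so that kidney cells keep it. Controls (2 females and 2 males) were Nrf2 Flox/Flox::Keap1+/- littermates, so both groups carried floxed Nrf2. Of the controls, 3 had K5-Cre as the NEKO mice did (K1Cre) and 1 female was without it (K1). Each mouse was measured on 1 Agilent 1-colour array. Controls were thus heterozygous for Keap1 and not wild type.

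Throughout, a level is the log2 of the probe's processed signal minus the 75th percentile of its array. A difference is the NEKO minus control value of a limma fit with sex as a term, and a gene was called when its p adjusted over all 19593 features was under 0.05. Keap1, the targeted gene, was at 1.80, 1.77, 1.92 and 1.87 in the controls and at 0.45, 0.06, 0.14 and 0.16 in the NEKO mice, a difference of -1.63 (SE 0.10, adjusted p = 0.0046). Of 15 NRF2 target genes, 14 were higher in NEKO mice at an unadjusted p under 0.05 and 2 were called, with a median difference of 1.30. Between 61.7% and 65.7% of the probes of an array were well above background. All females were on 1 slide and all males on the other, so the sex term is also the slide term. On both slides the controls lay at array positions 1 and 2 and the NEKO mice at positions 3 and 4, and position and genotype cannot be told apart. Nothing in the labels ties the mice to litters, and p-values measure the spread between these 8 mice.

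The responses act through short promoter elements, and the promoters that hold one are shown here for the genes to which the results below refer. Promoters of all 10 genes were found in RefSeq (GRCm38.p6, not the mm9 annotation of the arrays), each with 250 bases before and 50 after the transcription start. The ER stress response element (ERSE), bound by ATF6 with NF-Y, was searched as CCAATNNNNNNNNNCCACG, the related ERSE-II as ATTGGNCCACG, and the composite element bound by ATF4 with a C/EBP protein as TGATGNAA, on both strands. ERSE was found in 0.119% of 32851 promoters, ERSE-II in 0.0365% and the ATF4 composite element in 3.97%. The ERSE search matched Hspa5 and Hsp90b1, ERSE-II matched Herpud1, and the ATF4 element matched Herpud1, Trib3 and Asns. No match was found in these windows for Pdia4, Dnajb9, Xbp1, Atf4 and Ddit3, which says only that these letters are not there.

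The upstream sequences run 5′ to 3′ along the gene, ending at the base before the start site, except that of Trib3, whose match lies after it and which is shown to the thirtieth transcribed base. Capitals mark the matched element. Hspa5 lies at chr2:34771840-34772089 on the plus strand, Hsp90b1 at chr10:86705445-86705694 on the minus strand, Herpud1 at chr8:94386179-94386428 on the plus strand, Asns at chr6:7693210-7693459 on the minus strand and Trib3 at chr2:152344031-152344310 on the minus strand.
Hspa5: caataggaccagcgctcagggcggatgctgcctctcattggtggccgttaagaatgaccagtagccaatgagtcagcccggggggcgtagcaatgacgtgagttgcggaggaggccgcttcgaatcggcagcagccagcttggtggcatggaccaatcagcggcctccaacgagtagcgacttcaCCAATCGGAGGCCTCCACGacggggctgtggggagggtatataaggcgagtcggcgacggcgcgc
Hsp90b1: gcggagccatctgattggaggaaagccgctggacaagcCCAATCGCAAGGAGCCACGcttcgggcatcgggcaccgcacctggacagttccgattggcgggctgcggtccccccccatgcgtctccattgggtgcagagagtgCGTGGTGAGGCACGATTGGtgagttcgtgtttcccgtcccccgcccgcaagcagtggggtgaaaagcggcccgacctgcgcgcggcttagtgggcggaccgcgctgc
Herpud1: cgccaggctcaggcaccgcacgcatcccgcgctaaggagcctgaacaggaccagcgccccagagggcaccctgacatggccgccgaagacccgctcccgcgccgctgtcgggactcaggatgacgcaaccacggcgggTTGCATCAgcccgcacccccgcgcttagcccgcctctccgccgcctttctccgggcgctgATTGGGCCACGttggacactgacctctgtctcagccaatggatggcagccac
Asns: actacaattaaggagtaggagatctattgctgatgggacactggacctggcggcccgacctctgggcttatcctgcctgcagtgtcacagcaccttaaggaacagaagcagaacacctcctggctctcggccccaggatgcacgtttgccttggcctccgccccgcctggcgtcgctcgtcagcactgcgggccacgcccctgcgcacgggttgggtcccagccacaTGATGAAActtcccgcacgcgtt
Trib3: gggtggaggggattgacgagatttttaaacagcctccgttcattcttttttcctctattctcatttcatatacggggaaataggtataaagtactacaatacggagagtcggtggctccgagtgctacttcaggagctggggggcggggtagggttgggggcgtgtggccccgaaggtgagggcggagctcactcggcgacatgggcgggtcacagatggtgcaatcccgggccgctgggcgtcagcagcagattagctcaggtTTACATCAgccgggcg

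The Hspa5 match lies 65 to 47 bases before the start site. Hsp90b1 holds a pair of matches, 212 to 194 bases before the start and, on the other strand, 107 to 89 bases before it. In Herpud1 the ERSE-II match lies 52 to 42 bases and the ATF4 match 112 to 105 bases before the start, so this promoter holds an element of either branch. The ATF4 match of Asns lies 23 to 16 bases before the start, and that of Trib3 from base 15 to base 22 after it. The core of the antioxidant response element bound by NRF2, searched as TGACNNNGC and found in 12.4% of all promoters, also matched Asns and Herpud1.

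No member of the 10 was called in either direction. Of all features, 0.0970% were called higher in NEKO mice and 0.128% lower. At an unadjusted p under 0.05, 1 of the 10 genes was higher, Asns, and none was lower, beside 7.39% and 10.6% of all features. By the unpaired comparison with unequal variances that the methods name, again 0 were called after adjustment and 1 was higher before it. The median difference of the 10 genes was 0.00, beside -0.03 over all features, and it was -0.11 within females and 0.11 within males. For 9 of the 10 genes the 95% interval of the difference included 0, and for 8 it lay within 1.5-fold in either direction. The widest limits were 1.60-fold at the upper end, for Trib3, and 0.676-fold at the lower end, for Ddit3.

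**Figure D1:**
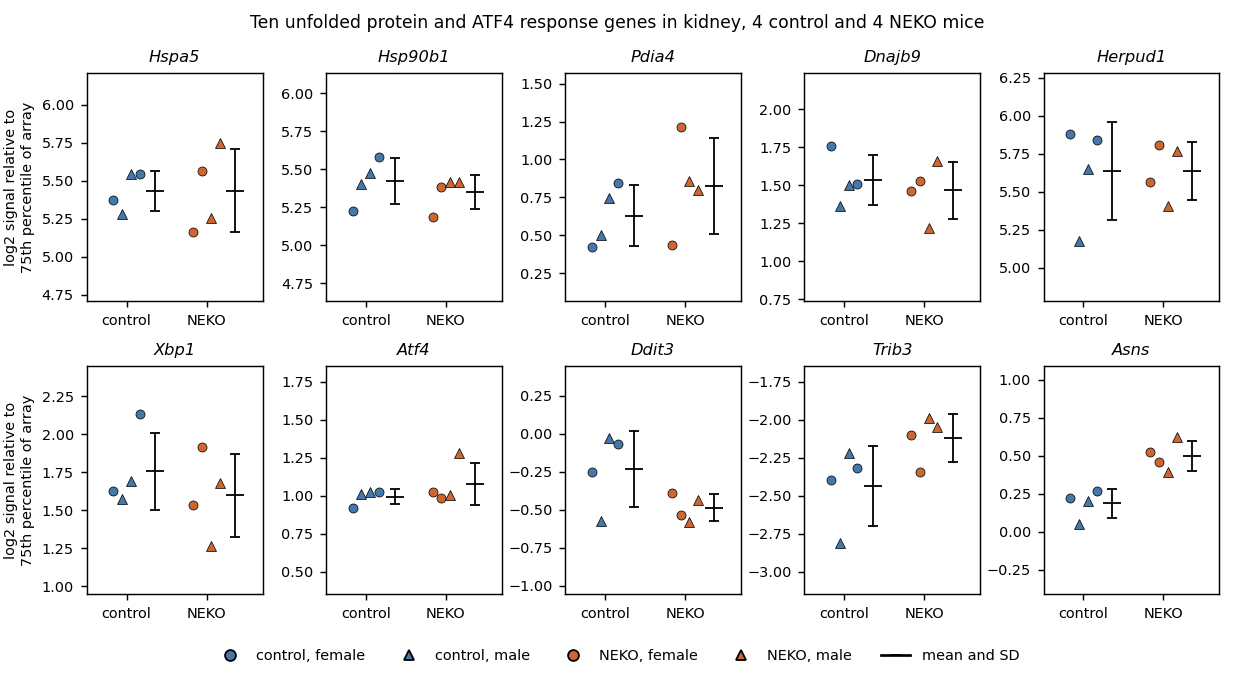
Level of each of the 10 genes (vertical axis, log2 signal minus that of the 75th percentile of its array, with the same span in every panel) in 4 control and 4 NEKO mice. Circles are females and triangles males, and the bar beside each group is its mean with the SD. Only in Asns do all 4 NEKO mice lie above all 4 controls, as they do in 3.89% of all features.

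Hspa5 encodes BiP, the ER chaperone that holds the 3 sensors inactive until misfolded proteins draw it away, and its transcript is among the most used readouts of the response. The Hspa5 level was 5.38 and 5.55 in the control females, 5.28 and 5.54 in the control males, 5.17 and 5.57 in the NEKO females and 5.26 and 5.75 in the NEKO males. The group means were 5.44 ± 0.13 and 5.44 ± 0.27 (SD, n = 4), and the ratio of NEKO to control was 1.00 with a 95% interval of 0.781 to 1.28. The NEKO mice therefore spanned the whole range of the controls and reached beyond it at both ends.

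Hsp90b1 encodes GRP94, an ER chaperone of the HSP90 family that folds integrins and Toll-like receptors. Its level was 5.23, 5.58, 5.40 and 5.48 in the controls (females first) and 5.18, 5.39, 5.42 and 5.42 in the NEKO mice. The difference was -0.07 (SE 0.10, adjusted p = 0.72) and the groups overlapped. A dimmer probe of Hsp90b1 gave a larger difference of -0.32 (SE 0.15, unadjusted p = 0.074), which was not called either.

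Pdia4 encodes ERp72, a disulfide isomerase that forms and reshuffles disulfide bonds in secretory proteins. In the same order its level was 0.42, 0.85, 0.50 and 0.75 in the controls and 0.44, 1.21, 0.86 and 0.80 in the NEKO mice. A difference of 0.20 (SE 0.18, adjusted p = 0.59) lay within the spread of the mice, although the NEKO female at 1.21 and the male at 0.86 were above every control. Dnajb9 encodes ERdj4, a co-chaperone of BiP that is a target of spliced XBP1. Its level was 1.76, 1.5, 1.36 and 1.5 in the controls and 1.46, 1.53, 1.21 and 1.66 in the NEKO mice, with a difference of -0.07 (SE 0.12, adjusted p = 0.79). The other probes of Dnajb9 differed by 0.10 and 0.07, so the 3 probes did not share a sign, and none was called.

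Herpud1 encodes an ER membrane protein of the degradation complex around the ubiquitin ligase HRD1. Its level was 5.88, 5.84, 5.18 and 5.65 in the controls and 5.56, 5.81, 5.40 and 5.77 in the NEKO mice. Both groups had a mean of 5.64, and the ratio was 0.999 with a 95% interval of 0.781 to 1.28. Its promoter holds both an ERSE-II and an ATF4 match, and its 4 NEKO mice lay within the range of the controls.

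Among the transcription factors, Xbp1 was at 1.63, 2.13, 1.57 and 1.69 in the controls and at 1.54, 1.91, 1.26 and 1.68 in the NEKO mice. The difference was -0.16 (SE 0.16, adjusted p = 0.60) and the groups overlapped. The array gave a single value for Xbp1, and its spliced and unspliced mRNA were not separated here. Atf4, which is controlled largely at translation, was at 0.92, 1.02, 1.01 and 1.03 in the controls and at 1.03, 0.99, 1.01 and 1.28 in the NEKO mice. It was the steadiest of the 10 genes in the controls, with an SD of 0.05, and the difference was 0.08 (SE 0.08, adjusted p = 0.62).

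Ddit3 encodes CHOP, which acts downstream of ATF4 and is linked to cell death when stress lasts. Its level was -0.25, -0.07, -0.57 and -0.03 in the controls and -0.39, -0.54, -0.58 and -0.44 in the NEKO mice. The 4 NEKO mice lay close together, below 3 of the 4 controls and beside the control male at -0.57. The difference was -0.25 (SE 0.13, adjusted p = 0.35, exact two-sided permutation p = 0.14). It was -0.37 without that control male, replicate 4, and -0.15 without the other control male, replicate 7.

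Trib3 and Asns are targets of ATF4, Trib3 encoding a pseudokinase that restrains ATF4 and AKT signalling and Asns the enzyme that makes asparagine from aspartate and glutamine. The Trib3 level was -2.40, -2.32, -2.81 and -2.22 in the controls and -2.10, -2.34, -1.99 and -2.05 in the NEKO mice. All but 1 NEKO mouse lay above every control, and the exception, a female at -2.34, lay among them. The difference was 0.32 (SE 0.15, adjusted p = 0.32, exact two-sided permutation p = 0.086), and it fell to 0.16 without control replicate 4, the male with the lowest level. The dimmer Trib3 probe differed by 0.21 (SE 0.23).

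The Asns level was 0.23, 0.27, 0.05 and 0.21 in the controls and 0.52, 0.46, 0.39 and 0.63 in the NEKO mice. The groups did not overlap, which 3.89% of all features also showed in this direction and 5.39% in the other. The difference was 0.31 (SE 0.08, n = 4 per group), a ratio of 1.24 with a 95% interval of 1.08 to 1.43. It was not called, since limma gave an unadjusted p of 0.0074 and an adjusted p of 0.15. The exact two-sided permutation p, which ignores sex, was 0.029, the smallest that 4 mice against 4 allow. With the normexp background correction the difference was 0.14.

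**Figure D2:**
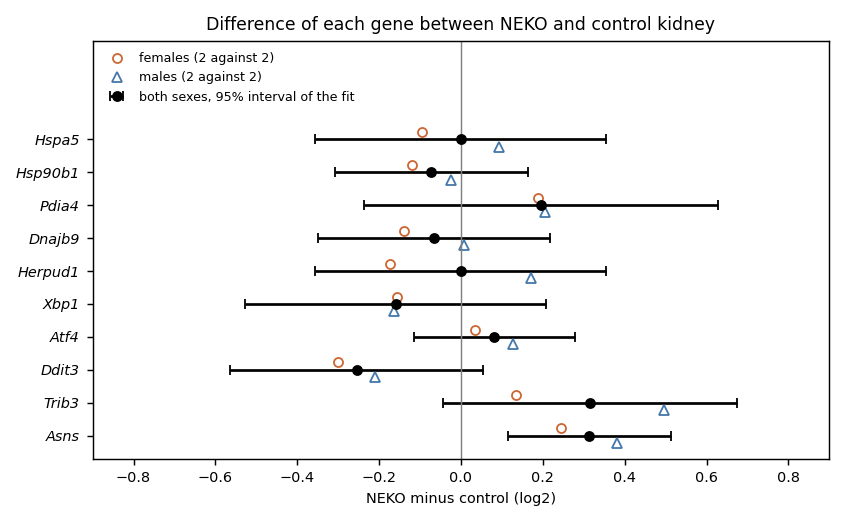
NEKO minus control difference (horizontal axis, log2) of each gene. Black points with bars are the fit with its 95% interval over 4 mice against 4, and open symbols are the plain differences within females and within males (2 against 2), and the interval of Asns, from 0.11 to 0.51, is the only one that leaves out 0.

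No difference in the effect of genotype between the sexes passed the test in these 10 genes. The male effect minus the female effect was called for 0 of the 10 genes, beside 0.0153% of all features, with the smallest unadjusted p at 0.26 and the smallest adjusted p at 0.74, both for Trib3. The Asns difference was 0.24 in females and 0.38 in males, that of Trib3 0.13 and 0.50, and that of Ddit3 -0.30 and -0.21. Herpud1 differed by -0.17 in females and 0.17 in males, with an interaction of 0.35 (SE 0.29). With 2 mice of a sex in each group these values are coarse.

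Over the 10 genes together the mice of the groups overlapped. The median deviation from the control mean was -0.04, 0.14, -0.16 and 0.04 in the controls (females first) and -0.12, 0.11, -0.09 and 0.15 in the NEKO mice. NEKO male replicate 6 had the highest level of 3 of the genes among all 8 mice, Hspa5, Atf4 and Asns, and the lowest of none. NEKO male replicate 5 and control male replicate 4 each had the lowest level of 3. The control female without K5-Cre had the highest level of 2 genes and the lowest of 2.

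**Figure D3:**
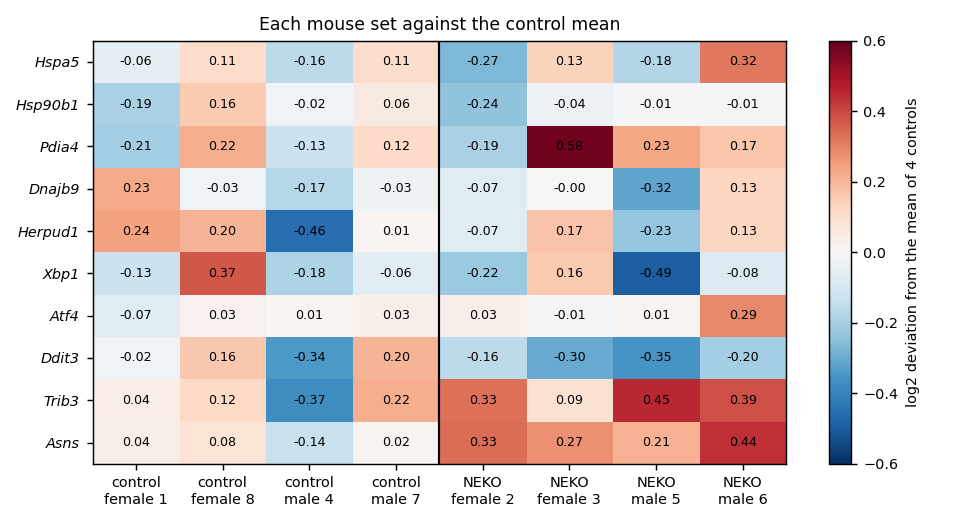
Deviation of each gene (rows) in each mouse (columns, controls to the left of the line) from the mean of the 4 controls, in log2 units, with red above and blue below that mean. Asns and Trib3 are above the mean in all 4 NEKO mice, Ddit3 and Hsp90b1 are below it in all 4, and the other rows hold both signs in NEKO mice.

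The genes whose pattern over the 8 mice was nearest to that of Asns, by the mean absolute difference of values set against the control mean, were Nedd4, Snhg20, Csgalnact2, Sdcbp and Ccdc68. That distance was between 0.05 and 0.06 for all 5. Their NEKO minus control differences lay between 0.26 and 0.34, with adjusted p between 0.12 and 0.25. The choice by closeness over the same 8 mice itself sets these differences near the 0.31 of Asns, so they are a description only.

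The wider pathway was read from a list of 118 other genes in 8 roles. Of these, 110 were tested, with 53 fitted higher and 57 lower in NEKO mice. Called were 1 higher and 0 lower, beside 0.0970% and 0.128% of all features. At an unadjusted p under 0.05, 11 were higher (10%) and 5 lower (4.55%), beside 7.39% and 10.6% of all features. The median difference was -0.01, beside -0.03 over all features. Mbtps2, Fgf21 and Slc7a11 had no probe that passed the filter, and Eif2b3, Pdia3, Dnajb11, Pycr1 and Mars were not named on the arrays here.

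The called gene was Gdf15, which encodes a secreted stress cytokine that is a target of ATF4 and CHOP and of other stress pathways. Its level was 0.19, 0.94, 0.63 and 0.68 in the controls (females first) and 1.80, 2.15, 2.47 and 2.77 in the NEKO mice. The groups were far apart, with a ratio of 3.22 (95% interval 2.30 to 4.51), a difference of 1.69 (SE 0.20) and an adjusted p of 0.041. The difference was 1.41 in females and 1.97 in males. It stayed between 1.57 and 1.89 when any 1 mouse was left out, but the call was lost in 7 of the 8 cases (adjusted p between 0.052 and 0.15) and kept without control replicate 8 (adjusted p = 0.026). It was also lost without the sex term (adjusted p = 0.051) and with no filter on dim probes (adjusted p = 0.074). By the comparison the methods name, the adjusted p was 0.25.

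**Figure D4:**
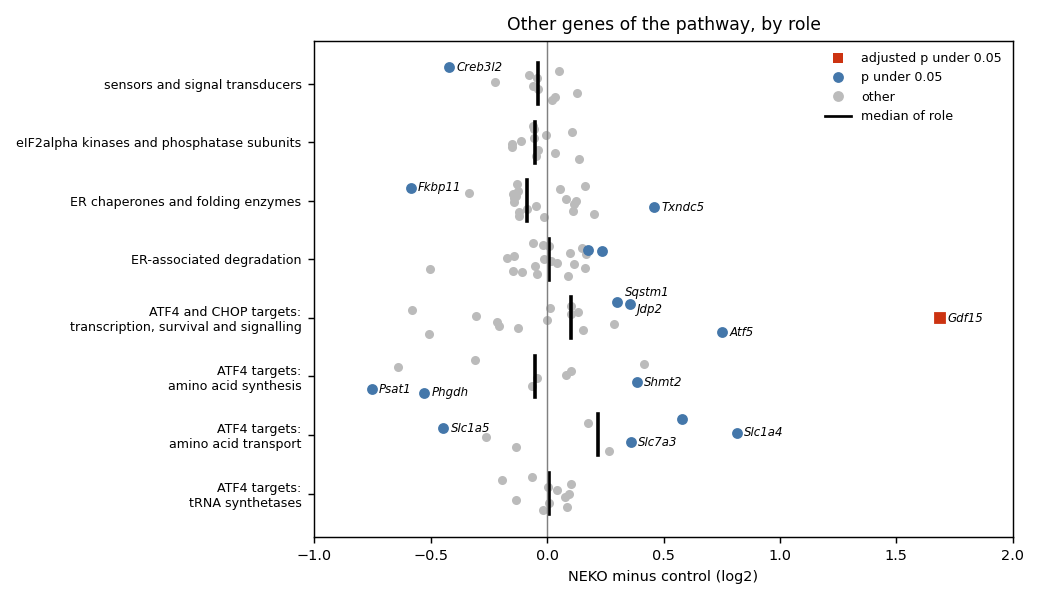
NEKO minus control difference (horizontal axis, log2) of the 110 other pathway genes, by role. Each point is a gene, the black line is the median of the role, blue marks an unadjusted p under 0.05 and the red square an adjusted p under 0.05, which Gdf15 alone reached.

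The 10 sensors and signal transducers had a median difference of -0.04, with none higher and 1 lower at an unadjusted p under 0.05. Ern1, which encodes IRE1, differed by 0.02 (SE 0.10), Eif2ak3, which encodes PERK, by 0.03 (SE 0.12), and Atf6 by 0.13 (SE 0.09). Creb3l2, an ER-bound transcription factor cut like ATF6, was the lower one, at -0.42 (SE 0.16, adjusted p = 0.24). The 12 tested genes of eIF2alpha, its kinases, its exchange factor and its phosphatase subunits had a median of -0.05 and none at an unadjusted p under 0.05.

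The 21 ER chaperones and folding enzymes had a median of -0.09, with 1 higher and 1 lower before adjustment. Txndc5, a disulfide isomerase, differed by 0.46 (SE 0.10, adjusted p = 0.11), and its dimmer probe by 0.16 (SE 0.19). Fkbp11, an ER prolyl isomerase abundant in secretory cells, was at -0.26, -0.23, -0.58 and -0.63 in the controls and at -0.92, -0.61, -1.29 and -1.23 in the NEKO mice. Within each sex (2 against 2) every NEKO mouse lay below every control, while over both sexes the groups overlapped. Creb3l2, described above, and Phgdh, described below, were lower within each sex in the same way. Txndc5, Shmt2, Sqstm1, Slc1a4 and Jdp2 were separate within each sex in the other direction. The share of all features with such a pattern was not computed. These genes were named for a small p in a fit with a sex term, which favours the pattern, so nothing is concluded from it. The Fkbp11 difference was -0.59 (SE 0.09, adjusted p = 0.059), just outside the threshold, and a dimmer probe gave -0.72 (SE 0.10, adjusted p = 0.052). The call depended on the setting. Fkbp11 was called, with adjusted p between 0.039 and 0.049, under the normexp correction, with the mean of its probes and with array weights. The adjusted p was 0.12 with no filter on dim probes, 0.13 with slide as a random block, 0.23 without the sex term and 0.40 by the comparison the methods name. With single mice left out it was 0.046 without NEKO replicate 3 and between 0.10 and 0.18 in the other 7 cases. The 21 genes of ER-associated degradation had a median of 0.01, with 2 higher, Herpud2 at 0.24 (SE 0.10) and Rnf5 at 0.18 (SE 0.07), and 0 lower before adjustment. Before adjustment, 7.39% of all features were higher and 10.6% lower.

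Among the targets of ATF4 and CHOP in transcription, survival and signalling, 4 of 17 were higher before adjustment and none lower, beside 7.39% and 10.6% of all features. Besides Gdf15 these were Atf5, Jdp2 and Sqstm1, of which Sqstm1 (p62), an autophagy receptor, is also a target of NRF2. The Atf5 level was 1.78, 1.82, 1.23 and 1.68 in the controls and 1.99, 2.02, 2.77 and 2.73 in the NEKO mice, so the groups did not overlap. Of the 110 other pathway genes, 4 (3.64%) had every NEKO mouse above every control and 0 had every NEKO mouse below. These shares stand beside 3.89% and 5.39% of all features. The Atf5 difference was 0.75 (SE 0.23, adjusted p = 0.18), made up of 0.21 in females and 1.30 in males, and the sexes differed by 1.09 (SE 0.22, unadjusted p = 0.0024, adjusted p = 0.15). Jdp2, a bZIP repressor, differed by 0.35 (SE 0.12, adjusted p = 0.20) and Sqstm1 by 0.30 (SE 0.09, adjusted p = 0.17). Atf3 and Chac1, which are widely used readouts of ATF4 and CHOP, differed by -0.51 (SE 0.39) and -0.21 (SE 0.29).

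The amino acid genes did not share a direction. Of 10 genes of amino acid synthesis, Shmt2 was higher at 0.39 (SE 0.10, adjusted p = 0.14), and Phgdh and Psat1, the first enzymes of serine synthesis, were lower at -0.53 (SE 0.13, adjusted p = 0.14) and -0.75 (SE 0.28, adjusted p = 0.23), all before adjustment only. Asns, described above, was fitted in the opposite direction to these serine synthesis genes. All 3 Phgdh probes gave between -0.55 and -0.53. Of 8 amino acid transporters, 3 were higher and 1 lower before adjustment, with Slc1a4 at 0.82 (SE 0.24, adjusted p = 0.17), Slc6a9 at 0.58 (SE 0.22, adjusted p = 0.24), Slc7a3 at 0.36 (SE 0.14, adjusted p = 0.24) and Slc1a5 at -0.45 (SE 0.13, adjusted p = 0.17). The 11 tRNA synthetases had a median of 0.01 and none at an unadjusted p under 0.05. Beside these counts, 7.39% of all features were higher and 10.6% lower at that p.

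**Figure D5:**
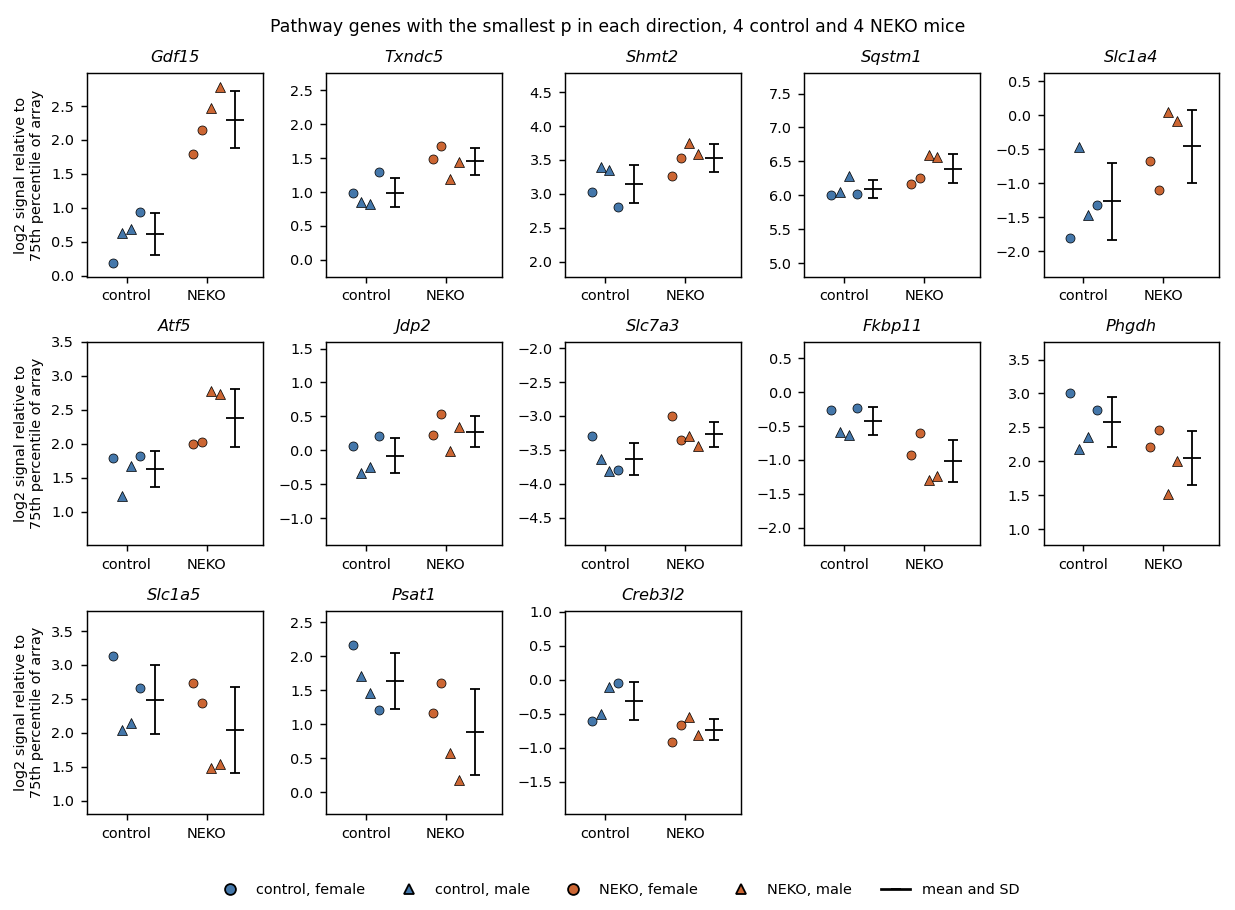
Levels (vertical axis, log2 signal minus that of the 75th percentile of its array, with the same span in every panel) of the 13 pathway genes with the smallest p in each direction in 4 control and 4 NEKO mice. Circles are females and triangles males, the bar is the mean with the SD, and the groups are separate in Gdf15 and Atf5 and overlap in the other 11. Of all features, 3.89% had every NEKO mouse above every control.

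The same genes were set out by promoter element. Of the genes of both lists with an ERSE match, 10 were tested, with 2 fitted higher and 8 lower, none at an unadjusted p under 0.05, and a median of -0.10. Of all features 8586 were fitted higher and 11007 lower, with a median of -0.03 and with 7.39% higher and 10.6% lower at that p. Of those with an ATF4 composite match, 16 were tested, with 9 higher and 7 lower, a median of 0.04, and 4 higher and 0 lower at an unadjusted p under 0.05. Asns and Txndc5 were among these 4. Of those with the core of the antioxidant response element, 24 were tested, with 9 higher and 15 lower, a median of -0.03, and 3 higher and 1 lower at an unadjusted p under 0.05. Asns and Txndc5 were also among these 3, so the groups by element share genes.

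Whole kidney holds many cell types, and fewer cells of a type and less RNA per cell cannot be told apart. The defining markers of the tubule were present. The log2 of the summed level of 6 markers of thick ascending limb and distal tubule lay between 8.41 and 8.76 in controls and between 7.96 and 8.62 in NEKO mice, that of 7 collecting duct markers between 5.44 and 5.75 and between 5.09 and 5.60, and that of 8 proximal tubule markers between 9.0 and 9.34 and between 9.19 and 9.43. For 7 markers of B and plasma cells, whose secretory machinery is large, it lay between 0.03 and 0.48 in controls and between 0.26 and 1.32 in NEKO mice, for 7 macrophage markers between 2.23 and 2.58 and between 2.01 and 2.82, and for 5 T cell markers between -1.34 and -0.56 and between -1.89 and -0.16. For 5 podocyte markers it lay between 3.49 and 6.88 in controls and between 2.43 and 3.54 in NEKO mice. A summed level is set mostly by the brightest markers. Taken singly, 3 of the 5 podocyte markers were fitted higher and 2 lower, with a median difference of 0.22 and a lowest of -2.45. None of the markers of any of these cell types was called. At an unadjusted p under 0.05, which 7.39% of all features passed higher and 10.6% lower, 3 of the 6 thick ascending limb and distal tubule markers were lower, and 3 of the 8 proximal tubule markers were higher and 1 lower. Of the collecting duct, podocyte and T cell markers 1 each was lower, and of the B and plasma cell and the macrophage markers 1 each was higher. Their part in the values above was not tested.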

How the data were processed

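Kidney RNA of 8 mice was labelled with Cy3 and hybridised to 1-colour Agilent arrays. The authors deposited Feature Extraction 10.7.3.1 output per array, whose processed signal is an intensity corrected for background but not scaled between arrays. The authors also deposited a matrix of log2 values, whose differences between arrays matched those computed here within 0.01 for 99.7% of values. Its centring by probe left its levels unused here, and it served as an alternative.

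Control spots and spots marked as outliers (73 to 172 of 43379 per array) were left out, and no spot was saturated. Spots of a probe were averaged, and log2 values were scaled by subtracting each array's 75th percentile. A probe was kept when it was well above background on 4 or more arrays and had a value on 6 or more, and the brightest kept probe, by its mean over all arrays, stood for the gene. Accessions, without versions, named 26690 of 41174 probes through RefSeq (GRCm38.p6). The model was fitted in limma 3.58.1 (R 4.3.3) by lmFit and eBayes with terms for genotype and sex, p-values were adjusted over 19593 features by Benjamini-Hochberg, and a second model held the interaction of both terms. Exact permutation tests were two-sided and reassigned all mice without regard to sex or slide. On simulated data for this comparison (19514 genes, 200 changed, 5 runs), the test found 69.6% of the genes changed 2-fold and 89.0% of those changed 4-fold, and 3.87% of its calls were false. Changes as small as those of the 10 genes were not simulated.

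The members and lists were chosen with earlier results of these data known. Named were the 10 members, Keap1, every called pathway gene, the 8 pathway genes in each direction with the smallest unadjusted p among those under 0.05, and the 5 genes most like the member with the smallest p. Ern1, Eif2ak3, Atf6, Atf3, Chac1, Herpud2, Rnf5, Slc6a9 and Slc7a11 were named after their values were seen. Alternatives were a normexp background correction (offset 50, on the median signal), quantile and median scaling, other filters, the mean of probes, no sex term, slide as a random block, eBayes with trend and robust, array weights, Welch's comparison with and without adjustment, the deposited matrix, stricter calls and leaving out each mouse.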

Additional observations from a re-analysis of the deposited data

Results flagged for a closer look

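Among 46 groups of 4 mice looked at for the named genes, 3 had a mouse far from the others, and chance gives about 1 in 20. Hsp90b1 was lowest in NEKO female replicate 2, at 5.18 against 5.39 to 5.42 in the other NEKO mice, a gap of 0.871 of the range of the group. Atf4 was highest in NEKO male replicate 6, at 1.28 against 0.99 to 1.03, a gap of 0.860 of the range. Sqstm1 was highest in control male replicate 7, at 6.29 against 6.01 to 6.04, a gap of 0.868 of the range.

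Slc7a11, which encodes the cystine transporter and is a target of both ATF4 and NRF2, was outside the comparison because no probe passed the filter. A pair of its 3 probes were well above background in the 2 NEKO males and on no other array. One read -2.32 and -1.89 there, against -7.65 to -7.16 in the controls, and -6.66 and -6.03 in the NEKO females. Another read -3.35 and -3.32 there, against -7.44 to -5.57 in the controls. The controls and the NEKO females have only a bound, and a difference between the sexes was not tested.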

How the results depend on the processing

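No paired analysis was possible because the replicate numbers run over both groups and none is shared. No setting called a member after adjustment, and Welch's comparison without adjustment gave 1 higher (Asns). The differences of Xbp1, Atf4, Ddit3, Pdia4, Trib3 and Asns kept their sign under all 21 settings, but their size moved. With single mice left out, Pdia4 ran from 0.043 (without NEKO replicate 3) to 0.35 (without NEKO replicate 2), Atf4 from 0.017 (without NEKO replicate 6) to 0.13 (without NEKO replicate 5) and Xbp1 from -0.26 (without control replicate 1) to -0.060 (without control replicate 8). The median difference of the 10 genes then ran from -0.095 to 0.082. With all mice, that median was -0.075 under the normexp correction and -0.068 with array weights. Hspa5 turned to 0.036 with quantile scaling and to 0.0045 and 0.0035 with median scaling and the deposited matrix, and Herpud1 to 0.028, 0.0038 and 0.0029 under the same settings. Dnajb9 turned to 0.033 with the mean of its kept probes. Larger moves kept the sign, with Hspa5 at -0.15 under the normexp correction and Hsp90b1 at -0.20 with the mean of its kept probes. With single mice left out, the difference ran from -0.12 to 0.10 for Hspa5, from -0.13 to 0.0079 for Hsp90b1, from -0.17 to 0.0081 for Dnajb9 and from -0.13 to 0.083 for Herpud1. The pathway gene called higher (1) became 0 with no filter on dim probes, with no sex term, with Welch's comparison after adjustment and at an adjusted p under 0.01, and 5 with Welch's comparison without adjustment, and it ranged from 0 to 1 with single mice left out. Pathway genes called lower (0) became 1 under the normexp correction, the mean of kept probes and array weights and 2 with Welch's comparison without adjustment, and ranged from 0 to 1 with single mice left out, in each single case Fkbp11 (without NEKO replicate 3, adjusted p = 0.046). Other scalings moved the median of all features by at most 0.01. With 4 mice a group, precision is limited by their number, and 8 of the 10 intervals lay within 1.5-fold.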
